A study of Mus musculus with 2 samples.

Results

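The genes described here are 9 components of cytokine and prolactin signalling in mouse mammary basal cells: the transcription factor genes *Stat2*, *Stat3*, *Stat5a*, *Stat5b* and *Stat6*, the kinase gene *Jak2*, and the feedback genes *Socs1*, *Socs2* and *Socs3*. They were chosen by name as rows of the deposited count table, which holds 49492 rows, and all 9 were found there once. Each had at least 20 counts over both libraries, as had 17356 rows of the table, which are called the tested genes below. The data comprise 2 RNA-seq libraries of sorted mammary basal cells from wild-type adult female mice, both labelled day 7. The CL basal library came from mice given clodronate liposomes (CL), lipid vesicles that macrophages ingest and that kill them. The Ctrl basal library came from control mice, which the sample label gives as untreated and the series design as treated with saline. The study asked how depletion of macrophages alters the basal (myoepithelial) cells that surround the luminal layer, sorted as CD24+ cells with high CD29 after removal of cells with CD45 (white blood cells), CD31 (vascular endothelial cells) or TER119 (red blood cells). The number of mice behind each library is not stated.

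In this pathway a cytokine or hormone brings its receptor chains together, the Janus kinases bound to them phosphorylate the receptor, and STAT proteins dock there, are phosphorylated and move to the nucleus. Among the genes that STATs turn on are those of the SOCS proteins, which bind receptors and kinases and damp the signal. In the mammary gland, prolactin acts through its receptor, JAK2 and STAT5 to drive alveolar development and milk protein genes, while STAT3 acts in involution, the regression of the gland after weaning.

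There was 1 library per group, so none of the differences below has a replicate check, and no p-value is given. The libraries held 37846008 counts (Ctrl basal) and 38962512 counts (CL basal). A log2 fold change compares CL basal with Ctrl basal after scaling to library size. The 95% interval behind it is the exact interval of the ratio of reads, which covers counting error only. This interval is too narrow if both mates of a read pair were counted, so some intervals are also given with counts halved. A gene is called higher or lower when it differed by at least 1.5-fold. Levels are given as RPKM, in which counts are scaled to library size and to the length of the annotated exons. All 10 basal markers examined were present, with a summed level of 19570 CPM (counts scaled to library size alone) in Ctrl basal and 20416 CPM in CL basal. Luminal markers differed more: all 15 had lower values in CL basal, 14 of them past 1.5-fold, beside 11.7% of all tested genes. Their sum went from 4815 to 2646 CPM. The part of this shift in the values below was not tested. In RNA of a sorted population, fewer cells of a type and less RNA per cell cannot be told apart.

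STATs act on promoters through short DNA motifs, so promoter stretches that hold one are shown first, for 3 of the 4 genes whose counting interval lay above no change in CL basal, none of which reached 1.5-fold. The motifs searched, on both strands, were the GAS motif TTCNNNGAA bound by STAT dimers, the same motif with 4 spacer bases (TTC, any 4 bases, GAA) that STAT6 can bind, and the core of the interferon-stimulated response element (ISRE: GAAA, any 2 bases, GAAA) bound by STAT2 together with IRF9. RefSeq promoter windows of 300 bases (GRCm38.p6) were held for 8 of the 9 genes, in 10 windows. *Socs2* had none. The 120-base stretches below run 5′ to 3′ on the strand of the gene and end upstream of the RefSeq start, with the matches in capitals. The *Socs1* stretch (chr16:10785553-10785672, minus strand) holds a pair of overlapping ISRE core matches, and the *Socs3* stretch (chr11:117969457-117969576, minus strand) holds a GAS match 154 bases upstream of the RefSeq start. In the count table *Socs3* is annotated up to 117970047, so this match lies inside the gene as counted. The *Stat2* stretch (chr10:128270248-128270367, plus strand) holds an ISRE core match followed by a GAS match with 4 spacer bases. The last line is a 30-base site of *Cish*, another SOCS family gene, at chr9:107296654-107296683 (plus strand), where GAS matches stand side by side at the start of transcription. *Cish* was the only gene outside the 9 whose matches were examined, and it is the only other SOCS family gene called higher. The windows of *Socs4* to *Socs7* were not examined.
Socs1: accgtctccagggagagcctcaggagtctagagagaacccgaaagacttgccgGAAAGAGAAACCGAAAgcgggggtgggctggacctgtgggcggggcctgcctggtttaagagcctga
Socs3: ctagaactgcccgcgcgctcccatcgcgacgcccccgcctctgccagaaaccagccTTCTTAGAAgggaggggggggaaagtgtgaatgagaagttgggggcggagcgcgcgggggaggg
Stat2: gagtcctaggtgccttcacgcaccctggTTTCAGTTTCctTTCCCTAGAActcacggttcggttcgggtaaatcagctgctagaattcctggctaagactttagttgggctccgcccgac
Cish: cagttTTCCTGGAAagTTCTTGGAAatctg

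Among the 9 genes, the GAS motif was found in the window of *Socs3* alone, and the ISRE core in those of *Socs1* and *Stat2*. None of the 3 motifs was found in the windows of *Stat3*, *Stat5a*, *Stat5b*, *Stat6* and *Jak2*. Counted per gene, 9.55% of the 27025 genes with a promoter window held the GAS motif, 8.01% the motif with 4 spacer bases and 3.99% the ISRE core. Counted per window, the shares were 8.3%, 6.95% and 3.44% of 32851. A match is a description of letters and does not show binding in these cells.

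Levels of the 9 genes spanned a wide range, from 2.13 to 212 RPKM. *Socs3*, the feedback inhibitor of receptors that signal through gp130, was the most abundant, with 151 RPKM in Ctrl basal and 212 RPKM in CL basal. *Stat3*, the factor activated by those receptors, followed with 46.7 and 57.3 RPKM, and *Jak2* came next with 33.8 and 29.2 RPKM. *Stat6*, the factor downstream of interleukin-4 and interleukin-13, had 15.01 RPKM in Ctrl basal and 13.7 RPKM in CL basal. The other 5 genes lay between 2.13 and 5.92 RPKM in both libraries. Here the order differed between libraries: *Stat5a* (5.15 RPKM) stood above *Stat2* (4.39) in Ctrl basal and below it in CL basal (4.81 against 5.92), and the 95% counting intervals of these levels did not overlap within either library. *Socs1* (2.33) and *Socs2* (2.13) could not be separated in Ctrl basal, where their intervals overlapped, whereas in CL basal *Socs1* (3.50) exceeded *Socs2* (2.13). *Socs1* and *Stat5b*, which had 3.22 RPKM in Ctrl basal, were separated there by intervals of 1.91 to 2.81 and 2.98 to 3.47 RPKM. Their intervals in CL basal touched, 2.98 to 4.07 for *Socs1* and 2.55 to 2.998 for *Stat5b*. All these intervals cover counting error only and rest on counts as deposited. The order of genes also depends on the annotated exon length, such as 1220 bases for *Socs1* and 9531 for *Socs2*, whose error they leave out.

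**Figure D1:**
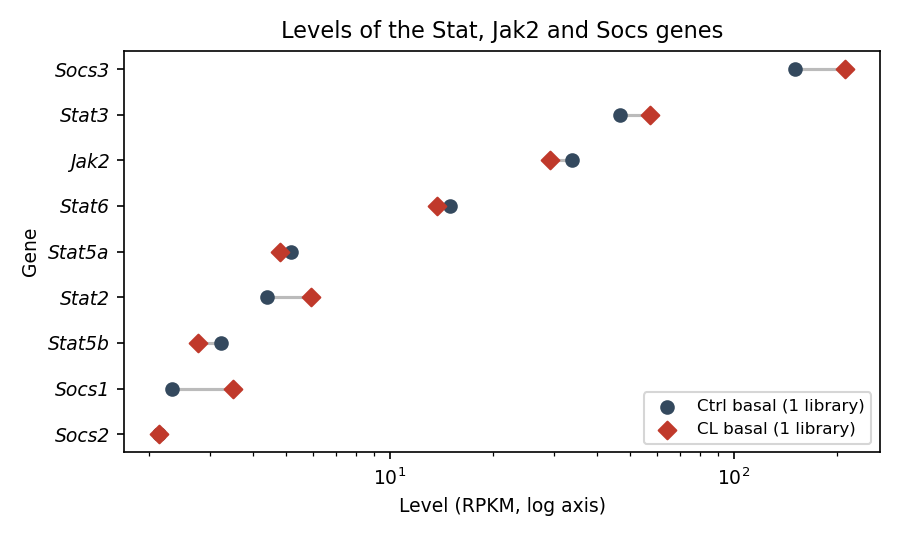
Level of each of the 9 genes in RPKM (log axis), with circles for the Ctrl basal library and diamonds for the CL basal library, ordered by the level in Ctrl basal. *Socs3*, *Stat3*, *Jak2* and *Stat6* keep their order in both libraries, and *Socs2* is at 2.13 RPKM in each.

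In the comparison of CL basal with Ctrl basal, none of the 9 genes was called, 0 higher and 0 lower, where 6.33% of the tested genes were called higher and 11.7% lower. Among genes with at least 1000 counts, a class that holds 8 of the 9, only 1.04% were called higher and 2.21% lower. After removal of a smooth dependence of the fold change on abundance, the shares over all tested genes were 8.19% and 9.43%. In that setting 1 of the 9 genes (*Socs1*, log2 fold change 0.67) was called higher. Smaller differences were resolved by the read counts. The counting interval lay above no change for 4 of the 9 genes (*Socs1*, *Socs3*, *Stat2* and *Stat3*) and below it for 3 (*Stat5b*, *Jak2* and *Stat6*), and it spanned no change for *Stat5a* and *Socs2*. Among tested genes the interval lay above no change in 25.2% and below it in 25.4%. Intervals narrow as counts rise, and 8 of the 9 genes have at least 1000 counts, so these shares are not a like background. The same limit holds for the lists below. Interval shares among genes with at least 1000 counts were not computed. With counts halved, the interval lay above no change for 4 of the 9 genes and below it for 2, as that of *Stat5b* then spanned no change. The shares of 25.2% and 25.4%, here and below, rest on counts as deposited. The median log2 fold change of the 9 genes was -0.0038, beside -0.0066 over all tested genes. The spread was smaller among genes with many counts: of 7097 genes with at least 1000 counts, 90% lay between -0.41 and 0.39, and 8 of the 9 genes (all but *Socs1*) belong to this class. Over all tested genes, 90% lay between -0.96 and 0.67.

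**Figure D2:**
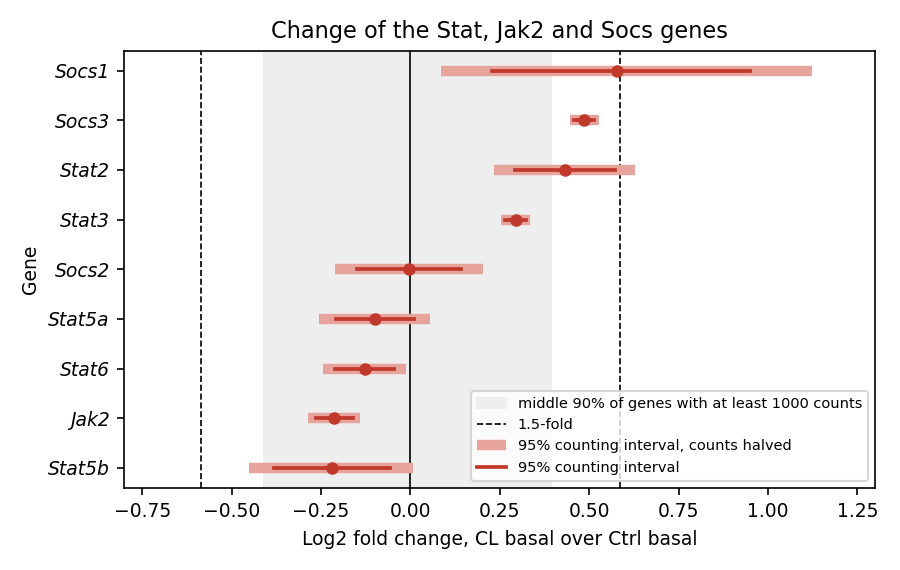
Log2 fold change of CL basal over Ctrl basal for each gene (points), with its 95% counting interval as deposited (thin bars) and after halving the counts (thick bars); the shaded band holds 90% of the genes with at least 1000 counts and dashed lines mark 1.5-fold. *Socs3* and *Stat2* lie above the band, as does *Socs1*, which has 273 counts and does not belong to the genes behind the band, and the STAT5 genes, *Stat6* and *Jak2* lie on the lower side within it.

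The feedback genes differed in their values. *Socs3* (chromosome 11, 117966079 to 117970047, GRCm38) had 16755 counts in Ctrl basal and 23516 in CL basal. Its log2 fold change of 0.49 (interval 0.46 to 0.51) was exceeded by 2.38% of the genes with at least 1000 counts. *Socs1* (chromosome 16, 10783808 to 10785536), an inhibitor of JAK2 and of interferon signalling, had 109 counts in Ctrl basal and 164 in CL basal. This is a log2 fold change of 0.58 (0.23 to 0.95), a value of 1.49-fold that lay just short of the threshold, with an interval that reaches far to both sides of it. *Socs2* (chromosome 10, 95385362 to 95417180), which restrains growth hormone and prolactin signalling and is itself turned on by STAT5, had 780 counts in each library, and its log2 value was -0.0038 (-0.15 to 0.14).

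The remaining SOCS family genes, *Cish* and *Socs4* to *Socs7*, had log2 values above 0, except that *Socs6* came to -0.0019 when scaled by total counts, and 1 of these 5 was called higher, beside 6.33% of all tested genes. With that scaling none was. *Cish*, a STAT5 target whose product binds activated cytokine receptors, rested on 495 counts in Ctrl basal and 753 in CL basal, with a value of 0.60 (0.44 to 0.77). It shares 479 of its 6419 exonic bases with *Gm17041* and 261 with *Gm17040*, both on the opposite strand and both with more counts in CL basal. *Socs7* followed with 0.41 (0.33 to 0.49), *Socs5* and *Socs4* had 0.17 and 0.16, and for *Socs6* (0.04) the interval spanned no change. *Socs3* made up 69.9% of the summed RPKM of the 8 SOCS family genes in Ctrl basal and 73.6% in CL basal. The sum of the family was 216 RPKM in Ctrl basal and 287 RPKM in CL basal.

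Of the 5 STAT genes among the 9, *Stat3* and *Stat2* had intervals above no change, *Stat5b* and *Stat6* had intervals below it, and none reached 1.5-fold. *Stat3* (chromosome 11, 100885098 to 100939540) was counted 17069 times in Ctrl basal and 20982 times in CL basal, which gave 0.29 (0.26 to 0.32) on the log2 scale. This was within the band that holds 90% of the genes with at least 1000 counts, of which 11.7% had a larger value. *Stat2* (chromosome 10, 128270576 to 128292849), the partner of IRF9 in type I interferon signalling, had 740 counts in Ctrl basal and 1001 in CL basal. Its log2 fold change was 0.43 (0.29 to 0.57), which 3.72% of the genes with at least 1000 counts exceeded.

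*Stat5a* and *Stat5b*, which encode the closely related factors of prolactin and growth hormone signalling, both had fewer counts in CL basal. Whether their intervals excluded no change depended on the processing, and the difference between the 2 genes was not tested. *Stat5b* (chromosome 11, 100780731 to 100850724) was counted 684 times in Ctrl basal and 589 times in CL basal, which gave -0.22 on the log2 scale (-0.38 to -0.06), and with counts halved the interval ran from -0.45 to 0.01. *Stat5a* (chromosome 11, 100859351 to 100885169) was counted 1410 and 1319 times in the same order, and its value of -0.10 (-0.21 to 0.01) was not resolved from no change at this depth. Scaled by total counts, its interval ran from -0.25 to -0.03. Per length, *Stat5a* was 1.60 times as abundant as *Stat5b* in Ctrl basal and 1.74 times in CL basal. *Stat6* (chromosome 10, 127642986 to 127660957) showed a small difference, with 2534 counts in Ctrl basal, 2325 in CL basal and a value of -0.13 (-0.21 to -0.05). *Stat4*, the factor of interleukin-12 signalling in lymphocytes, was scarce, with 110 and 79 counts (-0.47, interval -0.92 to -0.05, and -1.13 to 0.12 with counts halved), and it shares 1033 of 3872 exonic bases with another annotated gene.

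*Stat3*, *Stat5a* and *Stat5b* lie next to each other on chromosome 11, and the annotated exons of *Stat3* and *Stat5a* overlap by 72 bases on opposite strands. *Stat6* shares 40 bases with *Nab2* in the same way. Sequence likeness also limits how far the STAT5 genes can be told apart. Of the 100-base stretches in annotated transcripts (GENCODE M21), 3.44% of those of *Stat5a* and 4.79% of those of *Stat5b* occur in the other gene. The longest run of identical bases spans 324 bases of coding sequence over 3 exons. A part of it is printed here because a read from it could have been assigned to either gene: exon 7 of *Stat5a* (chr11:100874023-100874133, plus strand) and exon 6 of *Stat5b* (chr11:100798591-100798701, minus strand) read the same over 111 bases.
Stat5a and Stat5b: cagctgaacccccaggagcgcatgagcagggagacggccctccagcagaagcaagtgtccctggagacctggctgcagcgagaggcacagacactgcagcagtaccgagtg

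Of the other members, *Socs2* shared 2.31% of its 100-base stretches with *Gm9847*, which had 0 counts in Ctrl basal and 18 in CL basal, and the other 6 genes shared none with any other gene.

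*Jak2* (chromosome 19, 29251828 to 29313080), the kinase of the prolactin, growth hormone and interferon gamma receptors, had an interval below no change without reaching 1.5-fold. Counts were 6524 in Ctrl basal and 5641 in CL basal, with a log2 fold change of -0.21 (-0.27 to -0.16), and 14.5% of the genes with at least 1000 counts had a lower value. *Jak1*, the kinase it pairs with at gp130 and interferon gamma receptors, was nearly level, at 12495 and 13048 counts and 0.06 on the log2 scale (0.02 to 0.09), and at -0.03 without the trend on mean expression. *Jak2* made up 42.0% of the summed RPKM of the 4 Janus kinase genes in Ctrl basal and 37.7% in CL basal. *Jak3*, a kinase mainly of blood cells, had 243 and 170 counts (-0.51, interval -0.81 to -0.23). *Tyk2* had 116 and 120 counts, and its log2 fold change of 0.04 had an interval from -0.34 to 0.43.

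**Figure D3:**
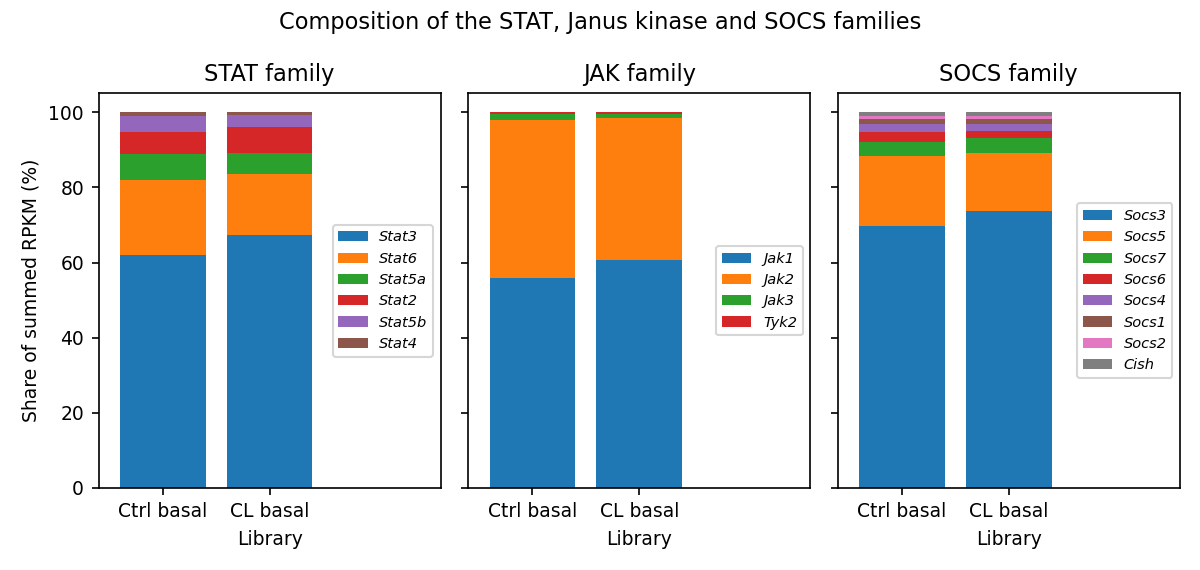
Share of each gene in the summed RPKM of the 6 STAT, 4 Janus kinase and 8 SOCS family genes, in percent, with 1 stacked bar per library. *Stat3* holds 62.1% of the STAT sum in Ctrl basal and 67.4% in CL basal, and *Socs3* holds 69.9% and 73.6% of the SOCS sum.

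Ligand and receptor genes had values on both sides of no change. Of 11 tested ligand genes, 0 were called higher and 3 lower, beside 6.33% and 11.7% of all tested genes, with a median log2 fold change of -0.04. Those named by the rule were *Csf2*, a growth factor of myeloid cells, with 102 counts in Ctrl basal and 48 in CL basal (-1.06, interval -1.62 to -0.58), and *Lep*, the adipocyte hormone leptin, with 88 and 52 counts (-0.74, -1.29 to -0.25). The third was *Tslp*, an epithelial cytokine, with 43 and 24 counts, named to complete the count. *Il11* and *Il6*, both ligands of gp130 receptors and singled out after their values were seen, lay on opposite sides. *Il11* had 1742 counts in Ctrl basal and 2609 in CL basal (0.58, 0.49 to 0.67, just short of 1.5-fold), and with upper quartile scaling 1 ligand gene was called higher in place of 0. *Il6* had 4821 and 3651 (-0.40, -0.47 to -0.34). Of 15 tested chains of receptors that signal through JAK2, not each of which binds it, 0 were called higher and 2 lower. These few counts are read against the same shares. *Prlr*, the prolactin receptor, was counted 812 times in Ctrl basal and 447 times in CL basal, a difference of -0.86 on the log2 scale (-1.03 to -0.70). It is also 1 of the 15 luminal markers that were lower in CL basal, whose median was -0.88. The other was *Epor*, the erythropoietin receptor, with 18 and 8 counts, also named to complete the count. *Il6st*, which encodes gp130 and was singled out after its values were seen, had 17427 and 17367 counts (-0.01, -0.04 to 0.02). Of 10 other tested receptor chains, 0 were called in either direction, beside the same shares, and the values ran from -0.54 (*Il2rg*) to 0.42 (*Il15ra*).

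Target genes were counted separately for each STAT. Of 15 STAT3 target genes, 0 were called, beside 6.33% called higher and 11.7% called lower over all tested genes. Among genes with at least 1000 counts the shares called were 1.04% and 2.21%. Of the 15, 10 had positive and 5 negative log2 fold changes, and their median was 0.11. This median was 0.07 by total counts and 0.04 without the trend on mean expression, and the median of all genes with at least 1000 counts, a class that holds all 15, was 0.04. The interval lay above no change for 9 and below it for 3, beside 25.2% and 25.4% of all tested genes. All 15 have at least 1000 counts and so narrow intervals, and these shares are not a like background for them. The values ran from -0.34 (*Bcl2l1*, interval -0.47 to -0.21) to 0.41 (*Fos*, 0.38 to 0.43), both named as the ends of the range. Of 11 tested STAT5 target genes, 2 were called higher and 3 lower, beside 6.33% and 11.7% of all tested genes, with a median of -0.06. The higher ones were *Cish* and the kinase gene *Pim2* (109 counts in Ctrl basal and 168 in CL basal, log2 fold change 0.61, interval 0.26 to 0.98), and with scaling by total counts neither was called (0.56 and 0.57). The lower ones were *Csn3* (kappa-casein, 1265 and 512 counts, -1.31), *Igf1* (114 and 52 counts, -1.11) and *Lalba*, with 30 and 2 counts, which was named because it completes the count. The other milk protein genes of the list were at or under 3 counts: *Csn2*, *Csn1s2a* and *Wap* had 0 in both libraries and *Csn1s1* had 2 in Ctrl basal and 0 in CL basal, where 3 counts correspond to 0.078 CPM.

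Interferon response genes are the setting in which STAT2 acts. Of 10 tested, 2 were called higher and 1 lower, beside 6.33% and 11.7% of all tested genes, and the median log2 fold change was 0.36. *Oasl2* had 289 counts in Ctrl basal and 841 in CL basal (1.53, interval 1.34 to 1.74), and *Oas1a* had 35 and 102 counts (1.49, 0.97 to 2.14). *Rsad2*, an antiviral gene of the same response, had 746 and 374 counts (-0.996, -1.18 to -0.82). The interval lay above no change for 7 of the 10 and below it for 3, beside 25.2% and 25.4% of all tested genes. Those singled out after their values were seen were *Irf9*, the DNA-binding partner of STAT2 (0.55, 0.45 to 0.65), and the antiviral genes *Ifit2* (-0.40, -0.54 to -0.27) and *Mx1* (-0.41, -0.58 to -0.25), which with *Rsad2* had the intervals below no change.

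**Figure D4:**
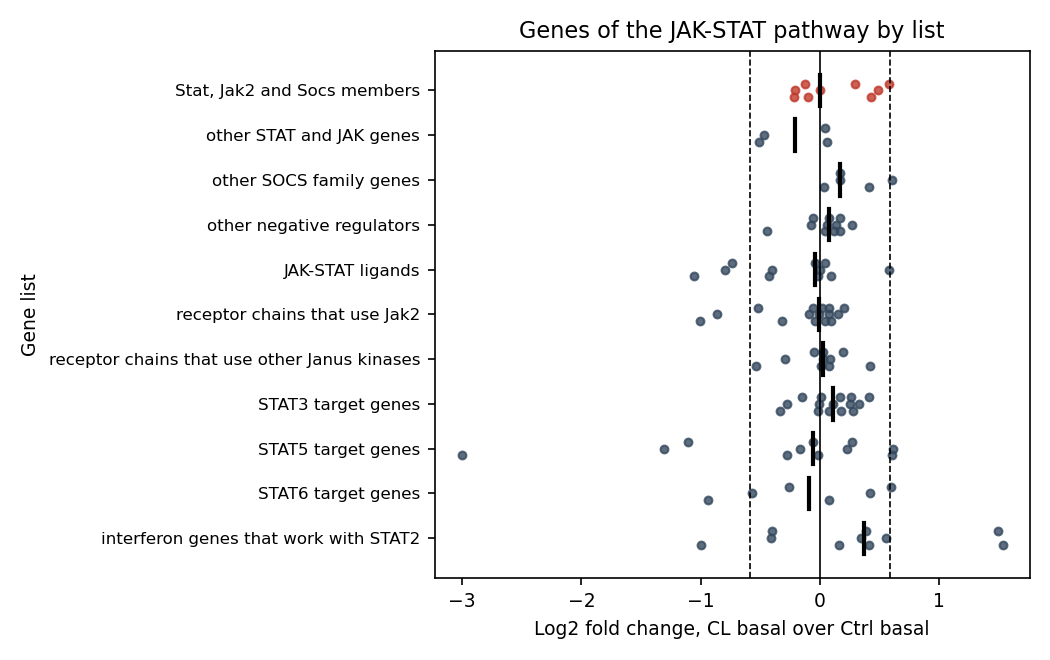
Log2 fold change of CL basal over Ctrl basal for each tested gene (points) of the 9 members and of each list of pathway genes, with the median as a black bar and dashed lines at 1.5-fold. The 9 members lie between -0.22 and 0.58, and the widest spread is in the STAT5 target list, from -3.0 to 0.61. Its lower end is *Lalba* alone, with 30 counts in Ctrl basal and 2 in CL basal. Without *Lalba* that list starts at -1.31, and the interferon list, from -0.996 to 1.53, spreads wider.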

How the data were processed

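Sorted basal cells gave 1 RNA-seq library per group. The authors deposited raw read counts per gene, not normalized, beside the exon coordinates and exon length of each gene. The submitters' processing notes name GRCm38 (mm10); the aligner, annotation release, use of strand and filters are not given in the sources used here. The table's own ratio and log2 ratio columns were not used. Counts were scaled by trimmed mean of M-values (TMM) factors of 0.9869 (CL basal) and 1.0133 (Ctrl basal) from edgeR 4.0.16 in R 4.3.3. Log2 fold changes used a prior count of 2, and a gene needed 20 counts in sum to be kept. Intervals of 95% (Clopper-Pearson for ratios, exact Poisson for levels) came from scipy 1.17.1 in Python 3.11.15. Counts were also halved, as if both mates of a read pair had been counted. No model with a spread between replicates can be fitted to 1 library per group. The fold change and interval were tested on simulated counts. Promoters came from RefSeq (GRCm38.p6) and transcripts from GENCODE M21.

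A gene of the STAT family is not reported here and was left out of the lists and sums. The members and lists were chosen with earlier results of these data known. Named genes were the 9 members, the remaining STAT, Janus kinase and SOCS family genes, and from each other pathway list at most 4 genes with at least 100 counts past 1.5-fold whose interval excluded no change. The alternatives were scaling by total counts, upper quartiles or DESeq2 1.42.0 size factors, prior counts of 0.5 and 5, a minimum of 100 counts or none, thinning of the deeper library, removal of the trend on mean expression, halved counts and a 2-fold threshold.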

Additional observations from a re-analysis of the deposited data

How the results depend on the processing

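None of the 90 values of the 9 genes under the alternatives changed sign where the counting interval had lain to 1 side of no change, and 85 stayed within the main interval. The other 5 were *Stat3* (0.26 by total counts, 0.21 without the trend on mean expression), *Socs3* (0.45 and 0.40 in the same order) and *Jak2* (-0.29 without the trend). With counts halved the interval of *Stat5b* was -0.45 to 0.01 and spanned no change. The interval of *Stat5a* lay below no change by total counts (-0.25 to -0.03) and without the trend (-0.23 to -0.01). The number of the 9 genes called higher was 1 in place of 0 with upper quartile scaling and without the trend, where *Socs1* had 0.59 and 0.67; it was 0 under the other alternatives, and the number called lower was 0 under all. The median over the 9 genes, set by *Socs2*, ran from -0.04 to 0.0063 and turned positive with upper quartile scaling (0.0063), with the deeper library thinned (0.0045) and without the trend (0.0038). The first reflects the scaling, which shifts all genes alike; for the others the cause was not tested. The share of tested genes called higher ran from 2.93% (at least 100 counts) to 13.3% (no filter) at 1.5-fold, and the share called lower from 6.94% to 21.3% in the same order. Among the other genes named by rule, *Cish* (0.56), *Pim2* (0.57) and *Gata3* (0.56) fell short of 1.5-fold by total counts, and *Gata3* (0.58) also without the trend. The median of the STAT5 targets ran from -0.11 to -0.04 over the alternatives and that of the ligands from -0.08 to -0.03. No paired analysis was possible because there was 1 library of each kind. Depth limits *Socs1*, with 273 counts over both libraries.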

Other observations

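Of 11 tested genes that restrain the pathway outside the SOCS family (PIAS proteins, phosphatases, and *Sh2b3*, *Cbl* and *Usp18*), 0 were called. Over all tested genes, 6.33% were called higher and 11.7% lower. The interval lay above no change for 4 and below it for 0, beside 25.2% and 25.4% of all tested genes. The log2 fold changes ran from -0.45 (*Pias3*) to 0.26 (*Pias2*) with a median of 0.08, which was 0.04 by total counts and 0.03 without the trend on mean expression. Of 6 tested STAT6 target genes, 1 was called higher and 1 lower, beside 6.33% and 11.7% of all tested genes. The higher one was *Gata3*, a transcription factor of luminal cells and of type 2 immunity, with 952 counts in Ctrl basal and 1443 in CL basal (0.60, interval 0.48 to 0.72), and 155 of its exonic bases overlap *Gm13256* on the opposite strand. It was not called by total counts (0.56) or without the trend on mean expression (0.58). By total counts 0 of the 6 were called higher and 2 lower. The lower one, *Fcer2a*, had 42 and 21 counts and is named to complete the count.

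Markers of other cell types were also detected. Macrophage markers summed to 42.6 CPM in Ctrl basal and 41.8 CPM in CL basal over 14 genes, of which *Ptprc*, also a lymphoid marker, gave 537 and 521 counts. Of the 10 tested macrophage markers 3 had positive and 7 negative log2 fold changes. *Mpeg1* was called higher (28 and 88 counts) and *Mrc1* (168 and 86) and *C1qc* (16 and 6) were called lower, while *Adgre1* had 7 and 10 counts. Over all tested genes, 6.33% were called higher and 11.7% lower. Lymphoid markers summed to 19.6 and 18.9 CPM over 10 genes, with *Klrb1c* at 0 in both libraries. Endothelial markers summed to 396 CPM in Ctrl basal and 323 CPM in CL basal, where *Jak2* had 170 and 147 CPM, fibroblast markers to 255 and 208 CPM, and adipocyte markers to 125 and 92.2 CPM. *Lep* belongs to the adipocyte list. The sort removed cells with CD45 or CD31, which mark white blood cells and vascular endothelial cells. The part of the cell types above in the values of the STAT, Janus kinase and SOCS genes was not tested.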
